A study of Saccharomyces cerevisiae with 18 samples.

Results

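The 7 genes KAR4, KAR5, PRM3, KAR3, CIK1, KAR9 and BIK1 act in karyogamy, the fusion of the nuclei of mating yeast cells, and were chosen by name as 7 of the 7124 genes counted. The choice was made with earlier results of these data known. Their transcripts were followed in 35 RNA-seq libraries of Saccharomyces cerevisiae, and Ste12 binding near their starts in 14 calling-card libraries with 2188 peaks. The study asked how substitutions of 1 residue in the part of the transcription factor Ste12 that contacts DNA alter its binding, gene expression, mating and invasion. For RNA, BY4705 MATα cells whose own STE12 gene had been deleted carried wild-type STE12 or the variant A160P, K146D, K152L, K150A, K150I or S158H on a centromere plasmid with the STE12 promoter, and were grown to exponential phase, with 5 replicates of each of the 7 forms. The labels call every construct a plasmid overexpression, whereas the study's methods give the promoter of STE12 itself for the RNA-seq plasmids, so the STE12 dose in these strains is not settled by the sources. No label names a pheromone or another treatment. For binding, BY4705 MATα cells that kept their own STE12 carried the same forms fused to the PiggyBac transposase under the galactose-inducible GAL1 promoter, were induced on galactose for 5 days, recovered in rich medium and selected for insertions, with 2 replicates of each form. In the study A160P, K146D and K152L mated poorly, whereas K150A, K150I and S158H mated like wild type. K146D, K152L, K150A and K150I were hyper-invasive and S158H invaded poorly.

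Ste12 activates mating genes when the pheromone pathway signals, and Kar4 is a transcription factor that works with it on a later set of genes, those of nuclear fusion. Karyogamy begins with congression, in which cytoplasmic microtubules from the spindle pole bodies pull the nuclei together. It ends with fusion of the nuclear envelopes. Kar3 is a minus-end-directed kinesin and Cik1 is the partner that targets it. Kar9 and Bik1 act at the ends of cytoplasmic microtubules, whereas Prm3 and Kar5 are membrane proteins of the nuclear envelope that are needed for the fusion itself.

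In the R64 annotation, KAR4 (YCL055W) lies at chrIII:27929-28936 on the plus strand and BIK1 (YCL029C) at chrIII:68599-69921 on the minus strand. KAR5 (YMR065W) lies at chrXIII:399702-401216 and CIK1 (YMR198W) at chrXIII:659745-661529, both on the plus strand. PRM3 (YPL192C) at chrXVI:182655-183056 and KAR3 (YPR141C) at chrXVI:815734-817923 are on the minus strand, and KAR9 (YPL269W) at chrXVI:33013-34947 is on the plus strand.

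RNA libraries held 1039390 to 5481822 counts, each a unique molecular identifier (UMI) that marks a transcript copied into cDNA. Replicates 4 and 5 had a median of 2035310 counts and replicates 1 to 3 a median of 3721260, and the first principal component separated the 14 libraries of replicates 4 and 5 from the other 21. In bulk RNA, fewer cells of a type and less RNA per cell cannot be told apart. STE12 itself, the gene that differs between the strains, was at 130 to 185 normalised counts per 1000000 (CPM) in wild type, and its transcript was higher than wild type in A160P, K146D, K152L and K150A by log2 1.21 to 1.85 (edgeR adjusted p from 6.37e-06 to 0.00793). In K150I and S158H its log2 differences were 1.08 (adjusted p = 0.116) and 0.46 (adjusted p = 1.00). The α-cell genes STE3, SAG1 and the α-factor genes MF(ALPHA)1 and MF(ALPHA)2 together stood at 2875 to 4037 CPM in wild type (here counts scaled by library total alone) and at 542 to 757 CPM in A160P, with SAG1 at 18.2 to 35.4 CPM in A160P against 985 to 1547 CPM in wild type. Their sum was 1652 to 2560 CPM in K146D, 1587 to 2739 CPM in K152L and 2513 to 4588 CPM in the 3 other variants. The genes did not move alike in K146D and K152L. SAG1 was below wild type, at 197 to 424 and 226 to 418 CPM. STE3 (264 to 544 and 267 to 577 CPM) and MF(ALPHA)1 (842 to 1033 and 821 to 1055 CPM) overlapped wild type, at 343 to 523 and 869 to 1115 CPM. MF(ALPHA)2 (264 to 584 and 177 to 730 CPM) reached lower than wild type (577 to 1002 CPM) but overlapped it. The 6 a-cell genes STE2, MFA1, MFA2, BAR1, STE6 and AGA2 summed to 21.0 to 143.8 CPM over all libraries, and MFA1, MFA2 and AGA2 were at 0 in some of them. The part of the STE12 level, the α-cell genes and the replicate sets in the results below was not tested.

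KAR4 had the clearest response of the 7 transcripts. It was 2.61- to 2.81-fold below wild type in the 3 variants that mated poorly, rose in K150A and K150I, and did not pass the test in S158H. Wild-type libraries 1 to 5 held 60.1, 64.6, 64.3, 83.3 and 65.1 CPM, a mean of 67.5 ± 9.08 (SD, n = 5). In A160P the 5 libraries held 25.4, 26.3, 24.1, 23.7 and 29.2 CPM, in K146D 23.6, 22.7, 29.8, 25.3 and 24.7 CPM, and in K152L 21.5, 21.5, 20.4, 32.2 and 25.2 CPM. Each of these 15 libraries lay below every wild-type library. The log2 fold changes were −1.39 (SE 0.13, adjusted p = 9.18e-09) in A160P, −1.42 (SE 0.13, adjusted p = 1.09e-08) in K146D and −1.49 (SE 0.13, adjusted p = 2.69e-09) in K152L.

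In the K150 variants, KAR4 moved the other way. K150A libraries held 124.9, 126, 129.6, 92.8 and 143 CPM and K150I libraries held 92.3, 97.4, 114, 103 and 139.6 CPM, and none overlapped wild type. KAR4 was 1.83-fold above wild type in K150A (log2 0.87, SE 0.13, adjusted p = 0.000148) and 1.62-fold above it in K150I (log2 0.70, SE 0.13, adjusted p = 0.0102). The K150I call was lost without wild-type replicate 1 (adjusted p = 0.0565), without wild-type replicate 3 (0.0541) or without K150I replicate 5 (0.0704), and the log2 difference stayed between 0.59 and 0.78 whichever of its 10 libraries was left out.

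S158H libraries held 42.8, 49.2, 58.5, 49.4 and 59.9 CPM of KAR4. All of them lay below the lowest wild-type library, with a log2 difference of −0.37 (95% interval −0.64 to −0.11), yet the adjusted p over all genes was 1.00 (unadjusted p = 0.00641). With the replicate number as a block the adjusted p was 0.0862. In replicates 1 and 2, which the labels list together as 1 sample, the log2 difference was −0.43 and passed on its own (adjusted p = 0.0219), where 5.26% of 6004 genes passed. The labels do not say whether these libraries were sequenced apart from the others.

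KAR5 fell with KAR4 but did not rise with it. Wild type was tight, at 25.1, 24.7, 25.9, 24.0 and 24.2 CPM. The A160P libraries held 10.0, 13.99, 8.91, 12.8 and 14.6 CPM, the K146D libraries 11.6, 12.5, 11.5, 13.3 and 21.0 CPM, and the K152L libraries 12.5, 8.81, 9.74, 17.2 and 14.7 CPM. No library of these 3 forms reached the lowest wild-type value, and K146D replicate 5 came closest to it. The log2 fold changes were −1.05 (SE 0.17, adjusted p = 0.000164) in A160P, −0.88 (SE 0.17, adjusted p = 0.00282) in K146D and −0.997 (SE 0.17, adjusted p = 0.000437) in K152L.

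In K150A, where KAR4 rose, KAR5 libraries held 29.0, 22.6, 24.5, 31.7 and 28.5 CPM and overlapped wild type, with a log2 difference of 0.13 whose 95% interval ran from −0.20 to 0.46. In K150I they held 25.7, 21.4, 25.1, 24.4 and 25.9 CPM, with a difference of −0.02 (95% interval −0.35 to 0.31). In S158H they held 16.0, 17.1, 22.7, 20.0 and 23.3 CPM. These 5 values lay below all wild-type values, with a log2 difference of −0.33 (95% interval −0.66 to 0.01) that did not pass the test (adjusted p = 1.00, unadjusted p = 0.0534). Each of these intervals for KAR5 ends below the 0.87 and 0.70 measured for KAR4 in K150A and K150I.

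PRM3 was counted least of the 7, with 1 to 65 UMIs in a library, so its values carry the widest intervals. Wild-type libraries held 3.14, 3.59, 5.80, 6.59 and 5.04 CPM, from 65 UMIs in all 5. In K150A they held 16.6, 19.4, 18.1, 12.0 and 21.4 CPM from 250 UMIs, far above wild type in all 5 libraries, and the transcript rose 3.63-fold (log2 1.86, SE 0.34, adjusted p = 0.00231). K150I libraries held 7.05, 2.38, 9.05, 7.54 and 8.77 CPM, overlapped wild type and differed by log2 0.53 (95% interval −0.17 to 1.23, adjusted p = 1.00).

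In the variants that mated poorly, PRM3 was near the limit of counting. K146D libraries held 0.61, 2.12, 2.15, 0.44 and 1.83 CPM from 23 UMIs, all below wild type (log2 −1.73, SE 0.40, adjusted p = 0.0244). The K146D call was lost without any 1 of wild-type replicates 3, 4 and 5 or K146D replicates 1 and 4, with adjusted p between 0.0512 and 0.152. A160P libraries held 1.63, 0.86, 3.44, 0.44 and 2.14 CPM from 34 UMIs, and the highest of them overlapped wild type. The log2 difference of −1.39 did not pass (SE 0.38, adjusted p = 0.0839), but passed with the replicate number as a block (log2 −1.35, adjusted p = 0.0280, where 2.59% of genes passed), with DESeq2 (adjusted p = 0.0377, 1.12% of genes) and without A160P replicate 3 (adjusted p = 0.0113). K152L libraries held 2.59, 3.30, 2.43, 3.01 and 3.26 CPM and differed by log2 −0.72 (95% interval −1.46 to 0.02, adjusted p = 0.9503). S158H libraries held 4.20, 3.21, 4.18, 3.88 and 2.76 CPM and differed by log2 −0.39 (95% interval −1.12 to 0.35).

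**Figure D1:**
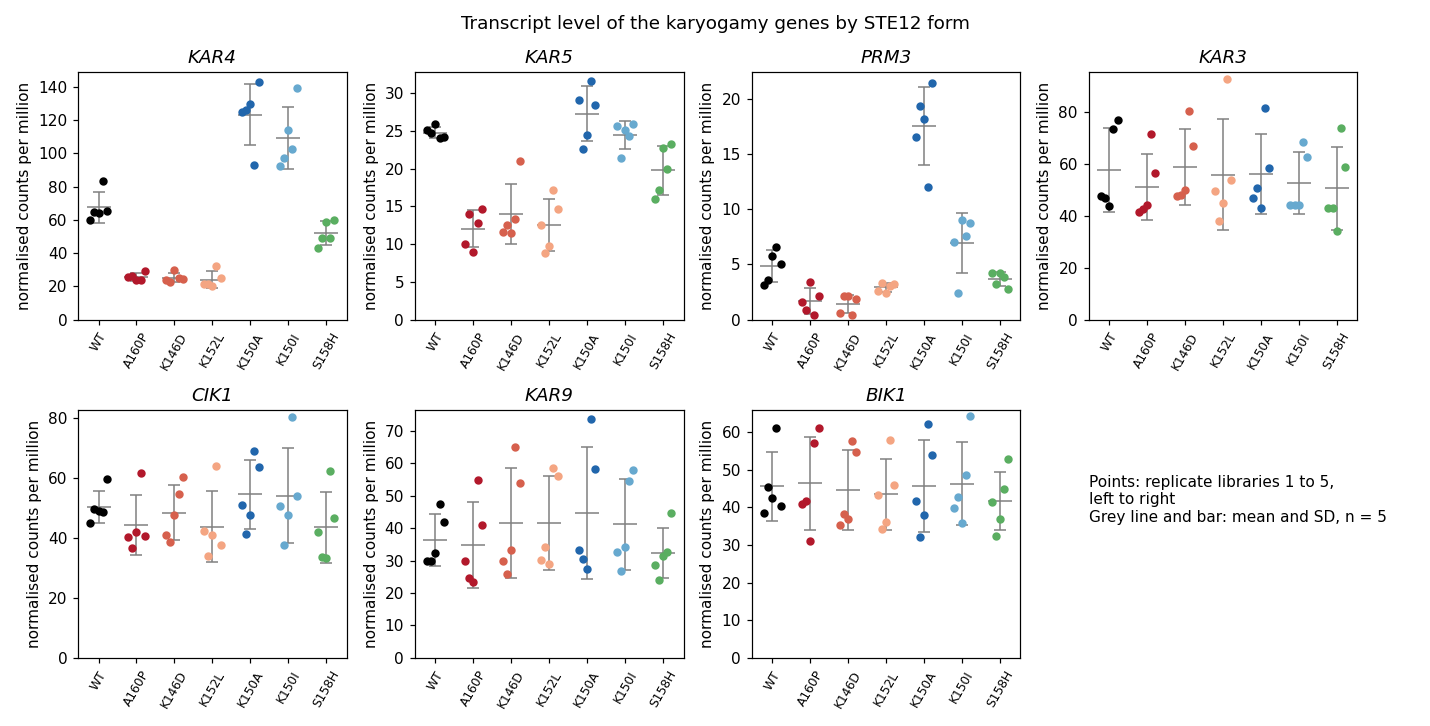
Normalised counts per 1000000 of the 7 transcripts in each of the 35 RNA-seq libraries, by form of STE12, with the mean and SD of 5 libraries. KAR4 lay at 20.4 to 32.2 CPM in A160P, K146D and K152L, at 60.1 to 83.3 CPM in wild type and at 92.3 to 143 CPM in K150A and K150I, whereas KAR3, CIK1, KAR9 and BIK1 overlapped wild type in every variant.

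The microtubule genes of congression did not follow. KAR3 spanned 43.6 to 76.7 CPM in wild type with a median of 47.6, and its genotype means ran from 50.4 CPM in S158H to 58.5 CPM in K146D. CIK1 ran from 45.03 to 59.5 CPM in wild type, with means from 43.5 CPM in S158H to 54.4 CPM in K150A. KAR9 ran from 29.9 to 47.6 CPM in wild type, with means from 32.2 to 44.6 CPM, and BIK1 from 38.5 to 61.2 CPM, with means from 41.7 to 46.4 CPM. Every variant overlapped wild type for all 4 genes.

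Their log2 differences from wild type lay between −0.22 and 0.29, against standard errors of 0.19 to 0.31. None of the 4 passed in any of the 6 comparisons with wild type or in the comparison between variants by edgeR, with 0 of them at an unadjusted p below 0.05, and 0 passed by DESeq2 or with the replicate block. In edgeR with the block, 1 of the 4 in K152L, 2 in S158H and 1 in the comparison between variants had an unadjusted p below 0.05. Of all 6139 genes, 893, 700 and 892 did so there. The spread within a group followed the replicate sets: in wild type KAR3 averaged 45.9 CPM in replicates 1 to 3 and 75.1 CPM in replicates 4 and 5, and KAR9 averaged 30.7 and 44.7 CPM. In K150A the KAR9 means of the same sets were 30.4 and 66.0 CPM. The 95% interval for KAR3 in A160P, −0.66 to 0.32, leaves out the −1.39 measured for KAR4 there.

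By comparison, 2 of the 7 transcripts passed in A160P (KAR4 and KAR5, both lower), where 0.928% of 6139 genes passed, and 3 passed in K146D (KAR4, KAR5 and PRM3, all lower), where 0.7% passed. In K152L 2 passed (KAR4 and KAR5, lower) against 0.896% of all genes, in K150A 2 passed (KAR4 and PRM3, higher) against 0.586%, and in K150I 1 passed (KAR4, higher) against 0.0652%. In S158H none passed, against 0% of all genes. Over all genes in S158H, edgeR called 0 with 179 at an unadjusted p below 0.05, DESeq2 called 2, and edgeR with the replicate block called 73. With the block, 24 to 296 genes passed in each of the 7 comparisons, and KAR4, KAR5 and PRM3 were called as before apart from PRM3 in A160P. The 6 comparisons share the wild-type libraries.

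The comparison of the 3 poorly mating variants with the 3 others uses no wild-type library. There KAR4 was 3.55-fold lower (log2 −1.83, SE 0.08, adjusted p = 3.07e-18), KAR5 1.87-fold lower (log2 −0.90, SE 0.10, adjusted p = 7.08e-08) and PRM3 3.85-fold lower (log2 −1.95, SE 0.22, adjusted p = 1.27e-07). Thus 3 of 7 passed, where 1.14% of all genes did. The study had already reported KAR4 and PRM3, from the same data, among genes lower in the poorly mating variants and with reduced binding there. The count is therefore not independent of that report. KAR3, CIK1, KAR9 and BIK1 differed by log2 −0.15 to 0.05, with 95% intervals within −0.38 and 0.35. The 3 calls were kept whichever of the 30 libraries was left out, and also in replicates 4 and 5 alone.

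**Figure D2:**
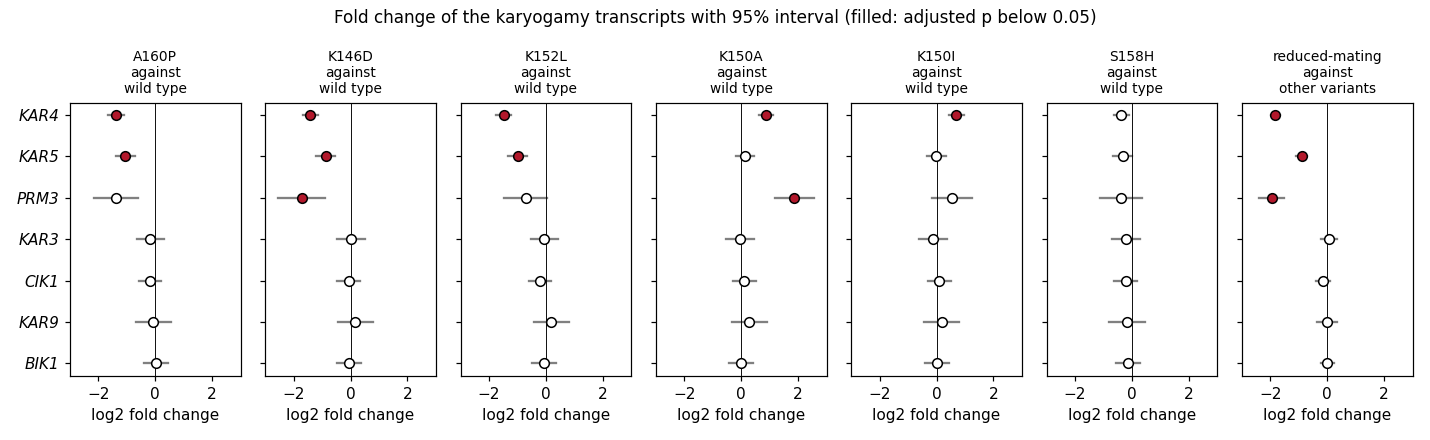
Log2 fold change of each transcript with its 95% interval in the 6 comparisons with wild type and in the comparison of A160P, K146D and K152L with K150A, K150I and S158H. Filled points passed an adjusted p of 0.05, and these were KAR4 in all but S158H, KAR5 in A160P, K146D, K152L and the last comparison, and PRM3 in K146D, K150A and the last comparison.

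When the 7 forms were ordered by mean log2(CPM + 1), KAR4 ran from K150A through K150I, wild type, S158H, A160P and K146D down to K152L. Neighbours were compared with an exact two-sided permutation test of 5 against 5 libraries, which cannot go below p = 0.00794. For KAR4 the steps from K150I to wild type, from wild type to S158H and from S158H to A160P each reached that exact p (adjusted p = 0.0833 over 42 neighbour pairs of the 7 genes). K150A and K150I (exact p = 0.262), A160P and K146D (exact p = 0.675) and K146D and K152L (exact p = 0.595) did not differ beyond their spread.

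For KAR5 the order was K150A, wild type, K150I, S158H, K146D, K152L and A160P. Its lowest raw values were at the steps from K150I to S158H (exact p = 0.0317) and from S158H to K146D (exact p = 0.0397). For PRM3 the step from K150A to K150I, a mean log2 difference of 1.29, reached an exact p of 0.00794 (adjusted p = 0.0833). The other steps of PRM3 had an exact p of 0.0635 or more. Among KAR3, CIK1, KAR9 and BIK1 no neighbours differed beyond their spread, with exact p from 0.460 to 0.992. No step of the 42 passed 0.05 after adjustment. Replicates 4 and 5 widen the spread within a form, so differences between libraries of the same number were also tested, a choice made after seeing the data. The exact sign-flip test of 5 such pairs cannot go below p = 0.0625. The 3 steps of KAR4, 2 of KAR5 and 1 of PRM3 named for their raw p had all 5 pairs of 1 sign and reached it (adjusted p = 0.438), and no step of the other 4 genes did. At the steps named for KAR4 and PRM3 the libraries of the neighbours did not overlap. Their pairs of 1 sign were thus fixed by the unpaired result and add nothing to it.

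The other genes of nuclear fusion were read from a list of 20. Of these, 10 act in congression (spindle pole body, tubulin and motor genes), 7 in membrane fusion (the chaperone KAR2, the SEC63 complex, JEM1, MPS3 and CDC31), and IME4, MUM2 and SLZ1 encode partners of Kar4 in mRNA methylation. All 20 were tested and 0 passed in any comparison with wild type by edgeR, with 0 to 6 at an unadjusted p below 0.05. The highest counts were 6 in K152L and 5 in K150A, where 346 and 475 of all 6139 genes were below it. The lowest was 0 in S158H, where 179 of all genes were. The listed genes were thus below 0.05 more often than all genes in K152L and K150A, and less often in S158H. The absence of calls therefore does not show that the list was unchanged. The median log2 fold change of the 20 was −0.12 to −0.02 across the 6 comparisons, and that of all genes 0.00 to 0.01. In the comparison between variants 1 passed, MUM2, lower by a log2 of −0.19 (SE 0.04, adjusted p = 0.0132), where 1.14% of all genes passed.

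BIM1, which encodes a microtubule plus-end protein that binds Kar9, had the largest difference of the 20 in size in A160P (log2 −0.61) and K152L (log2 −0.66). DESeq2 called 1 of the 20 in the comparisons with wild type, the α-tubulin gene TUB1 in K150A (log2 −0.38, adjusted p = 0.0344), where it called 0.945% of all genes. With the replicate block, BIM1 passed in A160P (adjusted p = 0.00332), K152L (0.00122) and K150A (0.0109). Of the 20, 2 then passed in A160P (2.59% of all genes), 1 in K146D (1.92%), 2 in K152L (3.62%) and 4 in K150A (4.82%), all lower. The 4 in K150A were BIM1, MYO2, TUB1 and TUB2.

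The 5 genes outside the list whose pattern was most like that of KAR4 were FIG1 (r = 0.97), AGA1 (0.97), PRM1 (0.94), AXL1 (0.93) and FUS2 (0.92), by Pearson's r of log2(CPM + 1) over 35 libraries after the mean of each replicate number was removed. FIG1 and PRM1 encode membrane proteins of mating, AGA1 an anchor of the cell surface agglutinin, AXL1 a protease that matures a-factor, and FUS2 a protein of cell fusion. KAR5 (r = 0.90) ranked 10 and PRM3 (0.85) ranked 16 of 6138 genes. CIK1 (0.48) ranked 114, KAR9 (0.18) 1158, BIK1 (0.13) 1594 and KAR3 (0.02) 2733. The points share their genotype groups and their library depth, so these values are a description. Of the 5, 3 stayed among the top 5 when replicate means were kept and 4 in replicates 1 to 3 alone.

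Calling cards record where a Ste12 fusion brought the transposase to DNA, and each UMI stands for an inserted transposon. Libraries held 5904 to 12778 UMIs in peaks. A gene window of 1000 bp before to 200 bp after the coding start held peaks for 3 of the 7 genes, KAR4, KAR5 and PRM3, with 7 peaks in all. No peak fell in the windows of KAR3, CIK1, KAR9 and BIK1, so these were not tested. Intervals of a share cover counting error only. Each share is out of the UMIs of its own library. The study found far fewer insertion colonies with A160P, K146D and K152L than with wild type and the other variants. Shares therefore do not compare the absolute amount of binding between forms.

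The KAR4 window took 2.76% (95% exact binomial interval 2.49 to 3.06) and 3.84% (3.38 to 4.35) of UMIs in the wild-type replicates, and K150I was like it at 3.54% and 2.92%. K150A held 1.95% and 1.59%. K146D held 0.560% and 0.578%, and K152L 0.495% and 0.539%. A160P held 0.0432% and 0.299%, and S158H 0.119% and 0.214%. In the A160P libraries 2 peaks elsewhere held 50.4% and 47.0% of all UMIs, and the shares given for A160P are out of totals that include them. S158H, which mated like wild type, had as few UMIs at KAR4 (7 and 13) as A160P (3 and 21). The limma log2 differences, on log2(UMI counts per 1000000 + 100), were −4.67 (SE 0.68, adjusted p = 0.000465) in A160P, −4.27 (SE 0.68, adjusted p = 0.000741) in S158H, −2.63 (adjusted p = 0.0122) in K152L and −2.50 (adjusted p = 0.0127) in K146D. With the library size taken without those 2 peaks, the A160P difference was −3.79 at KAR4, −3.87 at KAR5 and −3.08 at PRM3, and all 3 were still called (adjusted p = 0.00173, 0.0203 and 0.000174). The KAR4 difference in A160P was −3.41 without A160P replicate 1 and −5.94 without A160P replicate 2.

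In K150A the KAR4 window differed by −0.88 (95% interval −2.43 to 0.67, adjusted p = 0.390), and in K150I by −0.02 (95% interval −1.57 to 1.53). The K146D call was lost without wild-type replicate 2 (adjusted p = 0.0779), K146D replicate 1 (0.0626) or K146D replicate 2 (0.0595). The K152L call was lost without wild-type replicate 2 (0.0711) or K152L replicate 1 (0.0554).

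At KAR5 the wild-type window held 0.673% and 1.43% of UMIs, K146D 0.857% and 0.978%, S158H 0.999% and 1.12%, and K150A 0.633% and 0.665%. A160P held 0.0144% and 0.0569%, K152L 0% (0 UMIs, which allows up to 0.0354%) and 0.0980%, and K150I 0.181% and 0.0317%. The log2 difference was −4.62 in A160P (adjusted p = 0.00794), −4.91 in K152L (0.00561) and −3.47 in K150I (0.0325). These 3 calls rest on a peak inside the coding sequence of KAR5. In a window from 500 bp before the coding start up to it, they were lost. The differences there were −0.23 in A160P (adjusted p = 1.00), −0.87 in K152L (0.703) and 0.36 in K150I (1.00). That window held only the peak 231.5 bp before the start, with 3 and 0 UMIs in wild type. From so few UMIs no lower call could be made, so the loss does not show that these variants were like wild type there. Over the full window, the difference in K146D was −0.10 (95% interval −2.60 to 2.41), in S158H 0.11 (−2.40 to 2.61) and in K150A −0.59 (−3.10 to 1.92), intervals too wide to show whether these windows differ from wild type. With single libraries left out, the value ran from −5.34 to −3.89 in A160P, from −6.63 (without K152L replicate 2) to −3.20 (without K152L replicate 1) in K152L, and from −4.57 to −2.38 in K150I. The A160P call was lost without wild-type replicate 2 (0.0585) or A160P replicate 1 (0.0573), and the K150I call without wild-type replicate 1 (0.0751), wild-type replicate 2 (0.154) or K150I replicate 2 (0.235).

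The PRM3 window held 1.05% and 1.10% of UMIs in wild type and 1.67% and 1.44% in K150A, a log2 difference of 0.53 (95% interval −0.34 to 1.40, adjusted p = 0.352). K150I held 0.452% and 0.349%, K152L 0.401% and 0.245%, and K146D 0.131% and 0.133%. A160P held 0.0432% and 0.0853%, and S158H 0.102% and 0.0495%. The log2 differences were −3.93 in A160P (adjusted p = 3.34e-05), −3.74 in S158H (4.30e-05), −2.93 in K146D (0.000172), −1.75 in K152L (0.00496) and −1.41 in K150I (0.0157). Only the K150I call depended on a single library, and was lost without wild-type replicate 1 (0.0718), wild-type replicate 2 (0.0699) or K150I replicate 2 (0.103).

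Of the 3 windows tested, all 3 were called lower in A160P, where 40.3% of 981 windows were called in either direction, and all 3 in K152L, where 37% were. In K146D (48.9% of windows), K150I (39.9%) and S158H (41.5%) 2 were called, all lower, and in K150A (42.9%) 0 were, with 0 at an unadjusted p below 0.05 and 1 by edgeR on UMIs (KAR4, adjusted p = 0.0261), which called 41% of windows. In the comparison of the poorly mating variants with the others, all 3 were lower (64.2% of windows), by log2 −1.55 at KAR4, −1.89 at KAR5 and −1.33 at PRM3, with adjusted p of 0.00727, 0.0273 and 0.000697. The KAR5 call there was lost in 8 of 12 settings that left out a library and with the library size taken without the 2 large A160P peaks (adjusted p = 0.0501). Because so many windows were called, these counts do not set the 3 genes apart. A proportion test on UMIs pooled over replicates also called KAR4 and KAR5 lower (adjusted p = 2.47e-15 and 0.0135) and PRM3 higher (adjusted p = 0.000178) in K150A, where it called 34.6% of 1172 windows. That test takes UMIs as independent and leaves out the spread between replicates.

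Sums over a window hid a change in which peak was used, since in every tested window different forms of Ste12 filled different peaks. KAR4 has a peak at chrIII:27806-27976, which spans the coding start and is centred 38 bp before it, and a peak at chrIII:27427-27621, centred 405 bp before it between KAR4 and PEX34. Both also lie in the window of PEX34, a divergent gene for a peroxisomal protein. The −38 bp peak held 347 and 237 UMIs in wild type and ranked 1 of 2188 peaks there, and it held 233 and 275 in K150I, with rank 7. It held 3 and 21 UMIs in A160P, 47 and 50 in K146D, 42 and 43 in K152L, 41 and 33 in K150A, and 2 and 9 in S158H, where its rank was 140.

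At −405 bp, K150A had 132 and 106 UMIs, whereas every other library had between 0 and 6. That peak made up 76.3% of the K150A window UMIs in both replicates (95% exact binomial intervals 69.3 to 82.4 and 68.3 to 83.1), against 1.70% and 0% in wild type. Tested on their own, the −405 bp peak was higher in K150A by log2 5.83 (SE 0.84, adjusted p = 0.000482) and the −38 bp peak lower (log2 −2.92, SE 0.79, adjusted p = 0.0185). Against A160P, which had 0 UMIs at −405 bp, K150A was at least 63.1-fold higher, counting 3 UMIs over the group for 0. The higher call at −405 bp held whichever library was left out, with log2 4.57 without wild-type replicate 2 and 7.08 without wild-type replicate 1. The lower calls at −38 bp in K150A, K146D (log2 −2.51, adjusted p = 0.0278) and K152L (log2 −2.64, adjusted p = 0.0309) were each lost without any 1 of their 4 libraries, with adjusted p from 0.0618 to 0.136, and those in A160P (log2 −4.66, adjusted p = 0.00130) and S158H (log2 −5.28, adjusted p = 0.000562) were kept, at −5.93 to −3.39 and −6.21 to −4.36 with the variant's replicate 2 or 1 left out.

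KAR5 had a peak at chrXIII:399820-400007, inside the gene and centred 211.5 bp after its start, and a peak at chrXIII:399419-399522, which overlaps the upstream gene AEP1 and is centred 231.5 bp before the start. The peak inside the gene held 83 and 88 UMIs in wild type, 72 and 81 in K146D, and 55 and 67 in S158H. It held 1 and 3 in A160P, 0 and 8 in K152L, 9 and 3 in K150I, and 9 and 14 in K150A. The upstream peak held 46 and 44 UMIs in K150A and 0 to 7 in every other library.

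In K150A the upstream KAR5 peak took 82.1% and 75.9% of the window, against 3.49% and 0% in wild type, and was higher by log2 4.83 (SE 1.18, adjusted p = 0.0105). That call was lost without wild-type replicate 2 (log2 3.96), K150A replicate 1 or K150A replicate 2 (adjusted p from 0.0514 to 0.0843), and without wild-type replicate 1 the value was 5.71. The peak inside the gene had a log2 difference of −2.82 in K150A that did not pass (adjusted p = 0.0712). It was called lower in A160P (log2 −4.76, adjusted p = 0.00552), K152L (log2 −4.89, adjusted p = 0.00505, and −6.61 to −3.17 without K152L replicate 2 or 1) and K150I (log2 −3.64, adjusted p = 0.0250, and −4.54 to −2.74 without K150I replicate 1 or 2), the last lost without wild-type replicate 1 or 2 or K150I replicate 2 (adjusted p from 0.0648 to 0.182). The remaining peak of the window, 836.5 bp before the start, held 1 UMI in all and was not tested.

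At PRM3 K150I and K146D used a peak that held few or no UMIs in the other forms. The peak at chrXVI:183479-183716, centred 541.5 bp before the start and overlapping the neighbouring gene MIY2, held 132 and 68 UMIs in wild type, 148 and 126 in K150A, and 34 and 20 in K152L. It held 0 and 0 in K150I, at least 56.6-fold lower than wild type, and 1 to 6 UMIs in each A160P, K146D and S158H library. The peak at chrXVI:183094-183195, between PRM3 and MIY2 and centred 88.5 bp before the start, held 30 and 33 UMIs in K150I, 10 and 9 in K146D, and 0 to 2 in the other 10 libraries.

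All the PRM3 window UMIs of K150I therefore lay in the nearer peak, and 90.9% and 75.0% of those of K146D, from windows of 11 and 12 UMIs. The nearer peak was higher in K150I by log2 4.67 (SE 0.51, adjusted p = 7.50e-05) and in K146D by log2 2.90 (SE 0.51, adjusted p = 0.00118), with values of 3.99 to 5.35 and 2.22 to 3.57 when wild-type replicate 2 or 1 was left out. The far peak was called lower in A160P (log2 −3.92), K146D (log2 −5.13), K152L (log2 −1.73), S158H (log2 −3.84) and K150I (log2 −6.75, adjusted p = 1.81e-06), and the K152L call was lost without wild-type replicate 1 (adjusted p = 0.0552) or K152L replicate 2 (0.0781).

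Over the 6 tested peaks of the 3 windows, 3 were called in A160P (37.5% of 1129 peaks), 3 in K146D (46.8%), 3 in K152L (33.2%), 3 in K150A (35.9%), 3 in K150I (33.3%) and 2 in S158H (42.1%). These shares of peaks called are high, and the counts do not set the peaks of these genes apart.

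**Figure D3:**
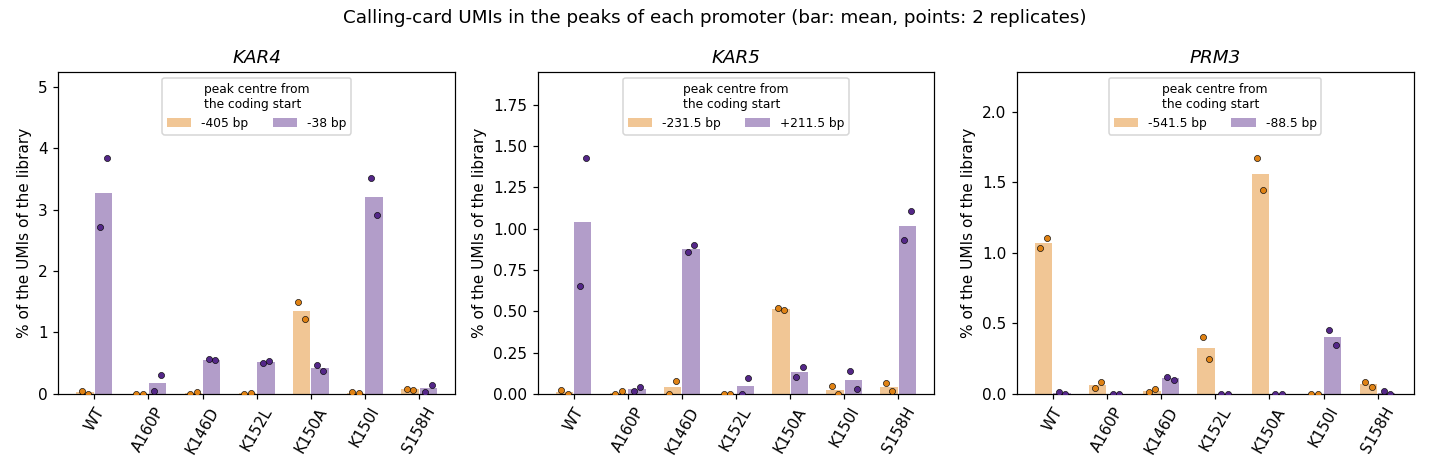
Share of each calling-card library's UMIs in the 2 peaks of the KAR4, KAR5 and PRM3 windows that hold more than 1 UMI, by form of Ste12, with the mean as a bar and both replicates as points. K150A filled the −405 bp peak of KAR4 and the −231.5 bp peak of KAR5, and K150I and K146D used the −88.5 bp peak of PRM3, where wild type used the −38, +211.5 and −541.5 bp peaks.

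Set side by side, level and binding moved together in some forms and apart in others. They were measured in different strains and growth conditions, so the values are given without a test. A160P was called lower in both for KAR4 and KAR5, and for PRM3 in binding alone, at 0.171% ± 0.181 (SD, n = 2) of UMIs and 25.8 ± 2.20 CPM (SD, n = 5) for KAR4. S158H had a KAR4 share of 0.166% ± 0.0677, as low as A160P, and a KAR4 level of 52.0 ± 7.13 CPM, in which every library lay above every A160P library. K150A had 1.77% ± 0.255 at KAR4, below the 3.30% ± 0.765 of wild type, and a level of 123 ± 18.4 CPM, above it.

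At KAR5, K150I held a share of 0.106% ± 0.106 and a level of 24.5 ± 1.84 CPM, whereas wild type held 1.05% ± 0.533 and 24.8 ± 0.766 CPM. This gap in share rests on the peak inside the gene. In the 500 bp window ending at the coding start, K150I and wild type each held 3 and 0 UMIs, too few to compare. K146D showed the reverse, with a KAR5 share of 0.918% ± 0.0855 and a level of 13.998 ± 4.00 CPM. As K146D gave far fewer insertion colonies in the study, this share does not show binding as strong as in wild type. At PRM3, K150A stood highest in both, at 1.56% ± 0.161 and 17.5 ± 3.53 CPM, and S158H had 0.0755% ± 0.0369 with 3.65 ± 0.636 CPM, against 1.08% ± 0.0384 and 4.83 ± 1.46 CPM in wild type. PEX34, whose window holds both KAR4 peaks, was at 36.3 ± 3.12 CPM in wild type, 46.9 ± 5.59 CPM in K150A, where all 5 libraries lay above wild type, and 38.3 ± 2.52 CPM in S158H. Its log2 differences in K150A and K150I, 0.37 and 0.35, did not pass (adjusted p = 0.247 and 1.00).

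**Figure D4:**
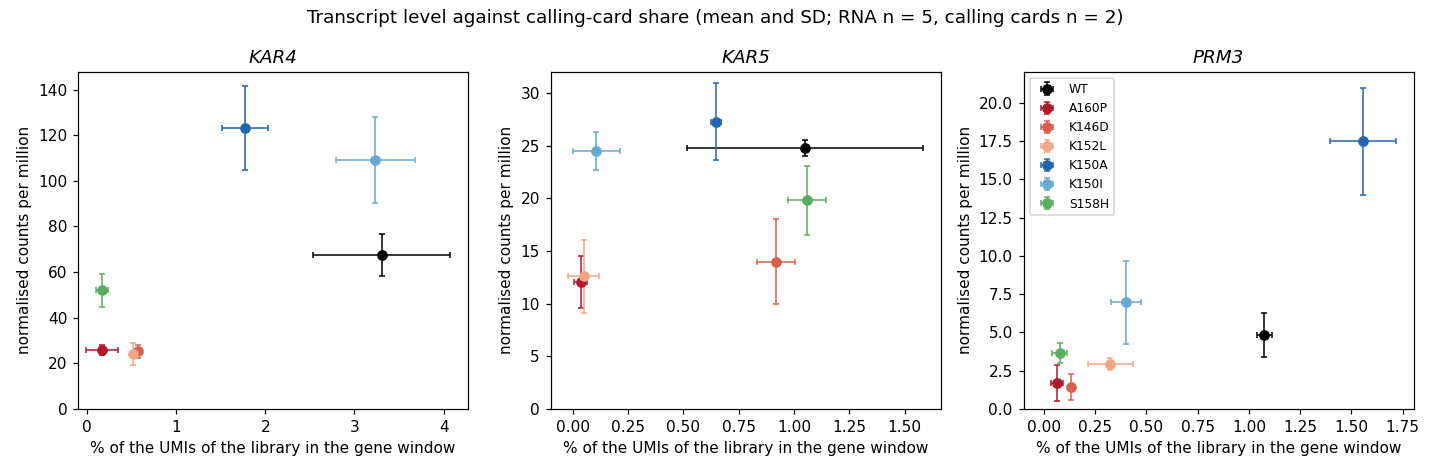
Mean transcript level in normalised counts per 1000000 against the mean percentage of calling-card UMIs in the gene window, for KAR4, KAR5 and PRM3, with 1 point for each form of Ste12 and SD bars of 5 RNA libraries and 2 calling-card libraries. S158H lay at 0.166% and 52.0 CPM for KAR4, and K150I at 0.106% and 24.5 CPM for KAR5, with KAR5 shares that include the peak inside the gene.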

How the data were processed

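Strains carrying 7 forms of STE12 were measured by RNA-seq (5 replicates each) and calling cards (2 replicates each). Per the labels, reads were processed with bcl2fastq, Trim Galore 0.4.1, STAR and MACS2 on R64. The authors deposited raw UMI counts of each gene, and for each peak the natural log of UMI counts per 1000000 plus 1, from which UMIs were recovered (100% of 30632 values whole within 0.001).

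Counts were tested with edgeR 4.0.16 (TMM, filterByExpr, quasi-likelihood, Benjamini-Hochberg at 0.05) in 1 fit of 35 libraries, without URA3 as in the study. It tested 6139 genes. The 981 gene windows and 1129 single peaks that reached 3 UMIs in 2 or more libraries were tested with limma 3.58.1 on log2(UMI counts per 1000000 + 100), which understates folds of low windows. The single-peak tests and the paired test of neighbours were chosen after seeing the data. Standard errors follow from the test statistics. The fits were tested on simulated data. The proportion test on pooled UMIs follows the study. DESeq2 1.42.0 and the alternatives of the closing section were run beside them.

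Same-numbered RNA libraries of a variant and wild type deviated together in all 30 pairs (r from 0.191 to 0.763, median 0.576, against −0.447 for other numbers), and 11 of 30 correlated best with their own number. The main fits used genotype alone. The numbers were taken as pairs in the fits with the replicate block and in the paired test of neighbours. The first principal component separated whole sets of replicate numbers, and such a split can make libraries of the same number deviate together. These values therefore do not show a pairing of single numbers beyond those sets. The numbers come from the column names, and the file description calls the replicates biological without saying what a number shares. If replicates are not separate cultures, p-values measure only their technical spread. Named were the 7 genes, STE12, the 5 genes most like KAR4, and other nuclear fusion genes as counts with examples. These members and lists were chosen with earlier results of these data known. CLN1, SOV1, PEX34, FUS1, AEP1 and MIY2 are named as neighbours of peaks. No promoter sequence was used here, so motifs were not searched. Transposase-only libraries were not analysed here. The counting tool's strand setting is not given in the sources used here, so reads of overlapping genes may be shared.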

Additional observations from a re-analysis of the deposited data

Results flagged for a closer look

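Of 49 groups of 5 RNA libraries (7 genes in 7 forms of STE12), 4 had a library far from the others, where chance gives about 1 in 20. These were KAR4 in wild type, replicate 4 (83.3 CPM), KAR5 in K146D, replicate 5 (21.0 CPM), PRM3 in K150I, replicate 2 (2.38 CPM), and CIK1 in A160P, replicate 4 (61.6 CPM).

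Peaks near these genes but outside their windows also held UMIs in both replicates of a form. In K150I, a peak at chrXIII:401350-401451 between KAR5 and SOV1, 1698.5 bp after the start of KAR5 and in the window of SOV1, held 523 UMIs, against 1 in wild type, 15 in S158H and 0 in K150A. SOV1 was at 41.97 ± 5.29 CPM in K150I and 42.8 ± 8.34 CPM in wild type (SD, n = 5). In K150A, a peak at chrXIII:661478-661675 that overlaps the end of CIK1 and lies in the window of CLN1, a G1 cyclin gene, held 212 UMIs, with 42 in A160P and 4 in wild type. Also in K150A, a peak inside KAR5, 519 bp after its start, held 21 UMIs. A peak 1800 bp before the start of BIK1, in the window of FUS1, held 282 UMIs in K150I (1.75% of its UMIs) and 197 in S158H (1.65%), with 71 in K146D, 42 in K150A and 32 in wild type. Tested as a single peak, it was higher than in wild type in K150I (limma log2 3.28, adjusted p = 0.00583) and S158H (log2 3.27, adjusted p = 0.00506). It was lower in A160P (3 UMIs, log2 −2.91, adjusted p = 0.0105) and K152L (5 UMIs, log2 −2.26, adjusted p = 0.0392). Both lower calls were lost without wild-type replicate 1. Of all 1129 peaks, 33.3% were called in K150I, 42.1% in S158H, 37.5% in A160P and 33.2% in K152L.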

How the results depend on the processing

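Directions of KAR4, KAR5 and PRM3 in expression were kept in every alternative wherever a call had been made, and calls changed mainly where libraries were few. In replicates 3 to 5 alone, 1 of the 7 transcripts passed in A160P, K146D and K152L (KAR4 each time) and 0 in K150A and K150I. In replicates 4 and 5 alone, 1 passed in A160P and 0 in K146D, K152L, K150A and K150I, although KAR4 differed there by log2 −1.56 in K146D, −1.38 in K152L, 0.66 in K150A and 0.71 in K150I. In replicates 1 and 2 alone, 1 passed in S158H. With each variant fitted with wild type alone, 1 passed in K146D and 0 in K150I, and leaving out single libraries gave 0 to 1 in K150I. Apart from S158H in replicates 1 and 2 (5.26% of 6004 genes), the share of all genes called in these smaller fits is not given. These counts therefore do not show whether the 7 transcripts or the whole fit lost calls. With the replicate number as a block, PRM3 in A160P had a log2 difference of −1.35 (adjusted p = 0.0280), no other call of the 7 transcripts changed, and 24 to 296 genes in all passed, against 0 to 70 without it. In binding, the block changed no window call. The paired test of neighbours, added after seeing the data, passed 0 of 42 steps. With a lowest possible exact p of 0.0625 it could pass none, so this outcome was fixed in advance. The unpaired permutation test also passed 0, where even the steps at its lowest possible p of 0.00794 had an adjusted p of 0.0833.

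For gene windows, leaving out single libraries gave 1 to 2 calls in K146D and 0 to 2 in K150I. A pseudocount of 10 gave 1 call in K150I, and the KAR5 calls were lost in A160P (adjusted p = 0.0714), in K150I (0.195) and in the comparison between variants (0.0777). Without the 2 large A160P peaks in the library size, the A160P differences fell in size to −3.79 at KAR4, −3.87 at KAR5 and −3.08 at PRM3 and stayed called. A narrow window, from 500 bp before the coding start up to it, gave 1 in K150I and 1 in K150A. With edgeR on UMIs, 1 was called in K150A. The narrow window leaves out the peak inside KAR5, so that the KAR5 difference turned from −0.59 to 4.83 in K150A (adjusted p = 0.00804) and from −3.47 to 0.36 in K150I, and the KAR5 calls in A160P (−0.23, adjusted p = 1.00) and K152L (−0.87, adjusted p = 0.703) were lost. Wild type held 3 and 0 UMIs in the narrow KAR5 window, so a lower call was not possible there. For single peaks, leaving out libraries gave 1 to 2 calls in K152L and 1 to 2 in K150A, against 3 in each with all libraries. Apart from edgeR on UMIs in K150A (41% of windows), the share of all windows or peaks called in these settings is not given. These counts therefore do not show whether the genes or the whole fit lost calls. With PRM3 at 1 to 65 UMIs a library and 2 calling-card replicates, differences inside the printed intervals were not detectable at this depth.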
